A study of Caenorhabditis elegans with 2 samples.

Results

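The genes described here are those of the cilium and of intraflagellar transport in Caenorhabditis elegans. They were taken from the deposited gene table by name: all genes called che, osm, dyf, bbs, ift, mks or nphp with a number (for che, 1 innexin gene was left out by the rule), together with daf-10, daf-19, xbx-1, klp-11 and kap-1. This gave 55 genes out of 21163 gene rows. Whole worms of the wild-type strain N2 were sequenced at day 5, after receiving 100 µM ellagic acid (EA), a plant polyphenol, or the vehicle. EA was mixed into the food bacteria, Escherichia coli OP50, in a working solution that held 0.2% dimethyl sulfoxide. The EA group and the control group held 1 library each, with 39421614 counts in the EA library and 41840364 counts in the control library. With 1 library per group there is no replicate check on any difference given here, no p-value was computed, and the 95% intervals cover counting error only.

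A cilium is a microtubule-based extension of the cell membrane. In C. elegans cilia are formed by sensory neurons alone, at the tips of their dendrites, where they detect odours, salts, osmotic strength, temperature and touch. They are built and kept up by intraflagellar transport (IFT), in which kinesin motors carry trains of IFT-A and IFT-B protein complexes to the tip and a dynein motor carries them back. The BBSome, named after Bardet-Biedl syndrome, travels on these trains and links membrane proteins to them, and the transition zone at the cilium base acts as a gate. Many of these genes are switched on by the RFX transcription factor DAF-19. The names che (chemotaxis), osm (osmotic avoidance) and dyf (dye filling) come from behaviour and staining screens, so some genes with these names act in glia, epidermis or signalling rather than in the cilium itself.

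Transcripts of the cilium genes were scarce, and as a group they stood at nearly the same level in both libraries. Together they took 0.0544% of the counts in the EA library and 0.0547% in the control library, or 537 and 554 CPM (counts scaled to the effective library size). The ratio of the sums was 0.970 (95% counting interval 0.952 to 0.989). Much of that sum came from osm-11 and osm-7, which encode secreted ligands related to Notch ligands. osm-11 alone held 27.4% of the cilium gene counts with EA and 29.1% in the control. Without these 2 genes the sums were 334 CPM with EA and 332 CPM in the control, a ratio of 1.01 (0.983 to 1.03). In RNA from whole worms, fewer ciliated cells and less RNA per cell cannot be told apart. Defining markers of ciliated neurons (che-2, osm-6, osm-5, tax-4 and tax-2) were all detected in both libraries. So were markers of neurons in general (rab-3, unc-104, snb-1, ric-4 and egl-3). These 5 were all lower with EA, 4 of them with intervals below 1, and their sums were 694 CPM with EA and 796 CPM in the control. Of the ciliated neuron markers, che-2, osm-6 and osm-5 belong to the cilium genes themselves, so they are no separate measure of the ciliated cells. Outside the cilium genes, tax-4 had 88 counts with EA and 39 in the control, and tax-2 had 64 and 65. Detection does not give the number of ciliated cells, which was not tested.

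Measured per transcript length, in the FPKM values that the authors deposited, the cilium genes lay low among the genes of the worm. Of the 55 genes, 49 reached a mean of 1 CPM, which corresponds to 39.9 counts in the EA library and 41.3 in the control library. Their median was 1.58 FPKM with EA and 1.54 FPKM in the control, against 13.9 and 13.8 FPKM over all 14221 genes at that minimum. Of the 49, 45 lay below the median of all genes. Their transcripts were long, with a median of 2330 nucleotides, against 1397 nucleotides over all genes at that minimum. They were spread over the genome, with 10 genes each on chromosomes I, II and V, 9 on chromosome III and 8 each on chromosomes IV and X.

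**Figure D1:**
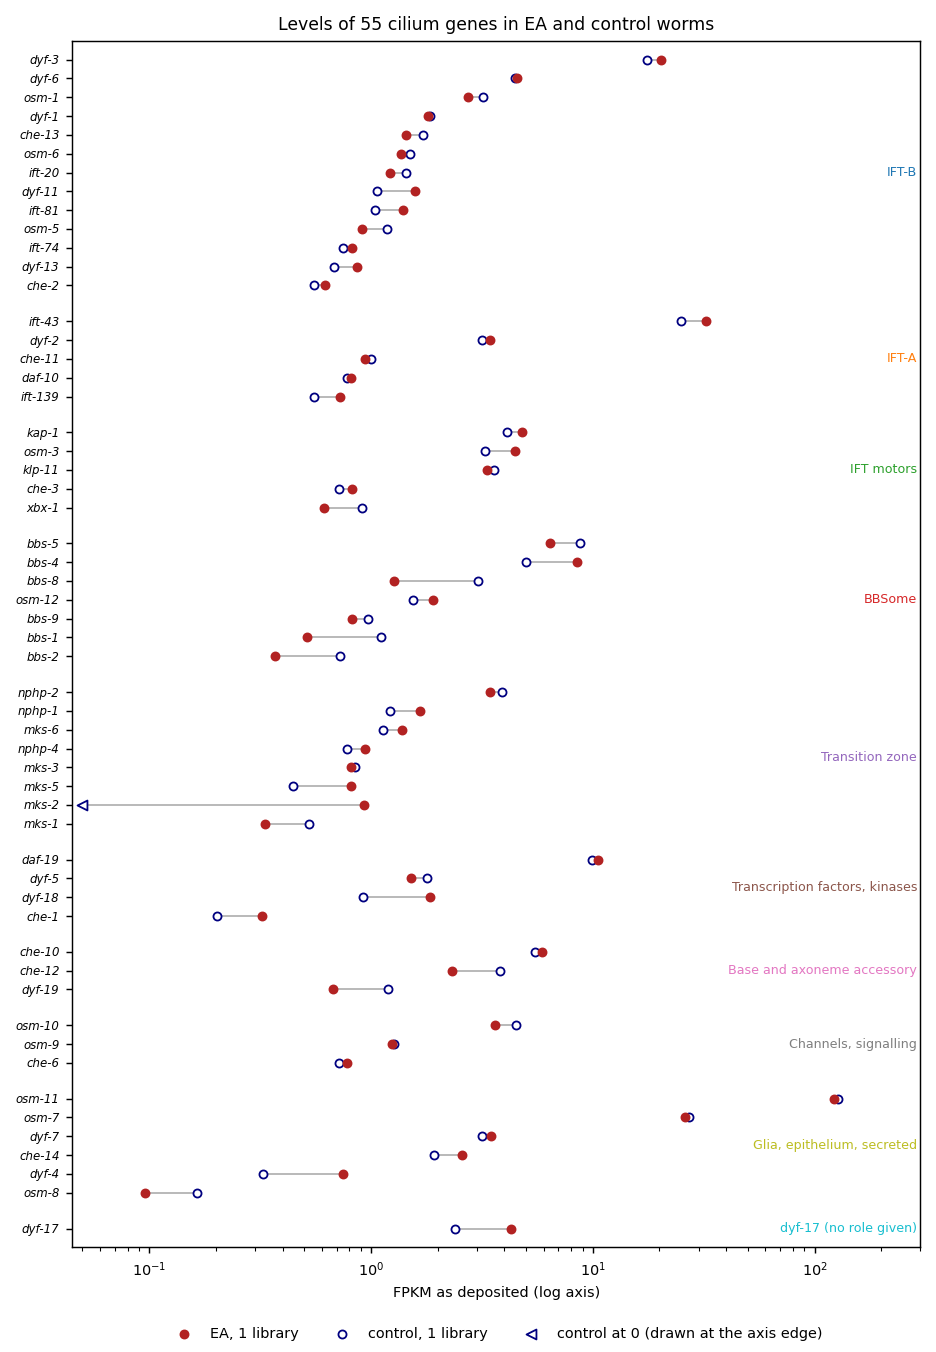
Deposited FPKM (log axis) of each of the 55 genes in the EA library (filled) and the control library (open), grouped by role and ordered by mean level; the grey line joins both values of a gene. Levels ran from under 1 FPKM for osm-8 to 122 FPKM with EA and 128 FPKM in the control for osm-11, and mks-2 was at 0 in the control.

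Few cilium genes differed by a large factor. A gene was called when its mean was at least 1 CPM, its ratio passed the fold and its interval excluded 1. At 2-fold, 0 of 49 cilium genes were higher and 3 were lower with EA, against 2.03% higher and 3.52% lower among all 14221 genes. At 1.5-fold, 3 of 49 (6.12%) were higher and 5 of 49 were lower, against 5.86% and 10.6% of all genes. These shares are near the background. The log2 ratio of EA to control was taken after adding 0.5 to the counts. Its median was 0.02 over the 49 genes and 0.00 over all genes, with 25 cilium genes above 0 and 24 below. The interval excluded 1 for 51.0% of the cilium genes and for 64.1% of all genes.

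Most of the cilium genes were weakly expressed, so they were also set beside genes of like level. Among the 37 cilium genes at a mean of 1 to 10 CPM, 0 were at least 2-fold higher and 3 were at least 2-fold lower, while 5.2% and 7.73% of the 5251 genes of that range were. At 1.5-fold, 3 of the 37 (8.11%) were higher and 5 (13.5%) lower, against 13.7% and 20.5% of the genes of that range. The depth limits these values. The interval reached a median of 0.33 to either side on the log2 scale, and 0.67 for the least counted of the 49 genes.

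**Figure D2:**
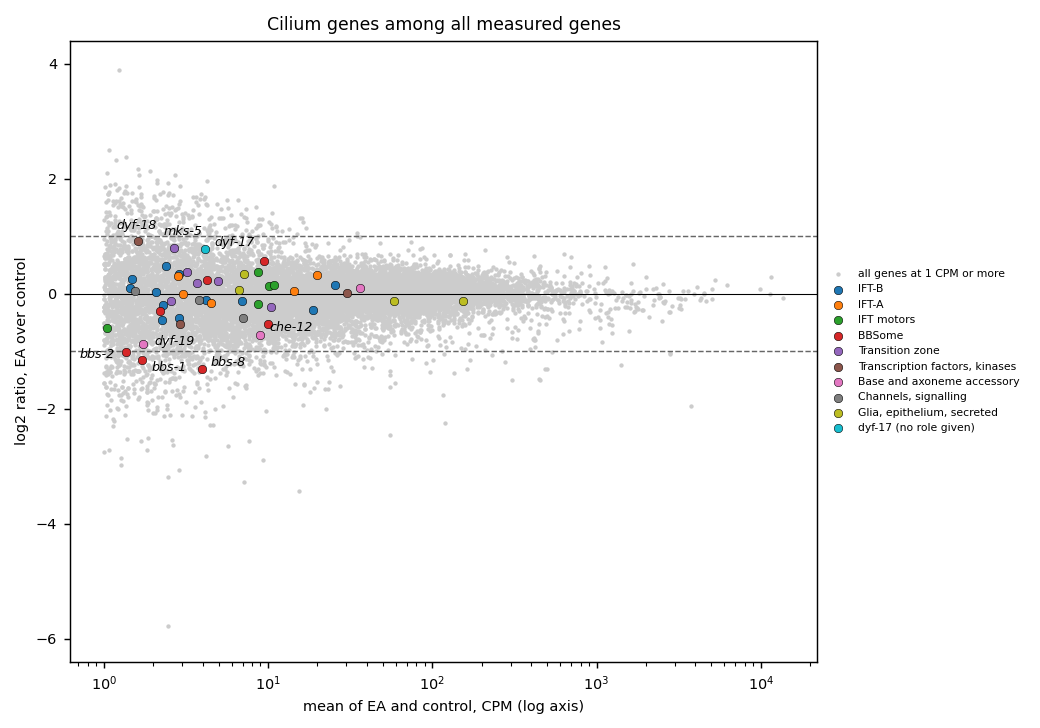
Log2 ratio of EA to control against the mean CPM of both libraries (log axis) for all genes at 1 CPM or more (grey) and for the 49 cilium genes at that minimum (coloured by role); dashed lines mark 2-fold. The 8 named genes are those past 1.5-fold, and bbs-8, bbs-1 and bbs-2 lie below the lower line.

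The genes past 2-fold were all subunits of the BBSome. bbs-8, a subunit with tetratricopeptide repeats (chromosome V, 6762467 to 6765072, build WBcel235), had 90 counts with EA and 233 in the control, or 2.26 and 5.64 CPM. It was 2.49-fold lower with EA (1.95 to 3.22), the lowest ratio among the 49 genes. bbs-1 (chromosome I, 14371138 to 14376086), which in humans helps to bind membrane cargo, had 42 counts with EA and 98 in the control and was 2.24-fold lower (1.55 to 3.32). bbs-2 (chromosome IV, 7934033 to 7937749), a core subunit of the complex, had 36 and 76 counts and was 2.02-fold lower (1.35 to 3.12). It stood at the limit, and it ended under 2-fold with total counts, FPKM or a pseudocount of 5. The authors' deposited ratios and false discovery rates come from the same 2 libraries, so they are no replicate check. At a false discovery rate of 0.01 and 2-fold they have bbs-8 and bbs-1 as lower and no cilium gene as higher. That is 2 of 51 cilium genes with a value there (3.92%), against 3.52% of the 14692 genes with a value, so a similar share.

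None of the other 4 BBSome subunits reached 1.5-fold, and 2 of them were lower and 2 higher with EA. bbs-5 had 8.22 CPM with EA and 11.8 CPM in the control, a log2 ratio of -0.52 (-0.73 to -0.32), and bbs-9 had 1.96 and 2.42 CPM at -0.31 (-0.75 to 0.13). osm-12, the worm gene for subunit BBS7, had 183 counts with EA and 161 in the control, a log2 ratio of 0.24 (-0.08 to 0.55). bbs-4, another subunit with tetratricopeptide repeats, was higher with EA, at 452 and 314 counts. Its ratio of 1.49 (1.29 to 1.73) lay just under 1.5-fold and was over it with total counts and with FPKM. Over all 7 subunits the median log2 ratio was -0.52, with 2 above 0 and 5 below. Their summed level was 30.3 CPM with EA and 35.6 CPM in the control, a ratio of 0.851 (0.788 to 0.919). By the mean FPKM of both libraries bbs-5 was the most abundant subunit, at 6.41 with EA and 8.81 in the control, and bbs-2 the least, at 0.370 and 0.729. The order of the subunits differed between libraries, since bbs-4 led with EA, at 8.47 FPKM, and had 4.99 FPKM in the control.

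Genes that work with the BBSome but are not named after it were looked up in a list of other cilium genes. arl-6, which encodes the small GTPase that in mammalian cells brings the BBSome to membranes and is counted among the human Bardet-Biedl genes, had 30 counts with EA and 63 in the control, a log2 ratio of -1.01 (-1.70 to -0.37). arl-3, a related ciliary GTPase, had 125 and 227 counts, at -0.81 (-1.14 to -0.49). Both were singled out after their values were seen. arl-13, another ciliary GTPase of that family, had 215 and 188 counts, at 0.24 (-0.04 to 0.53).

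**Figure D3:**
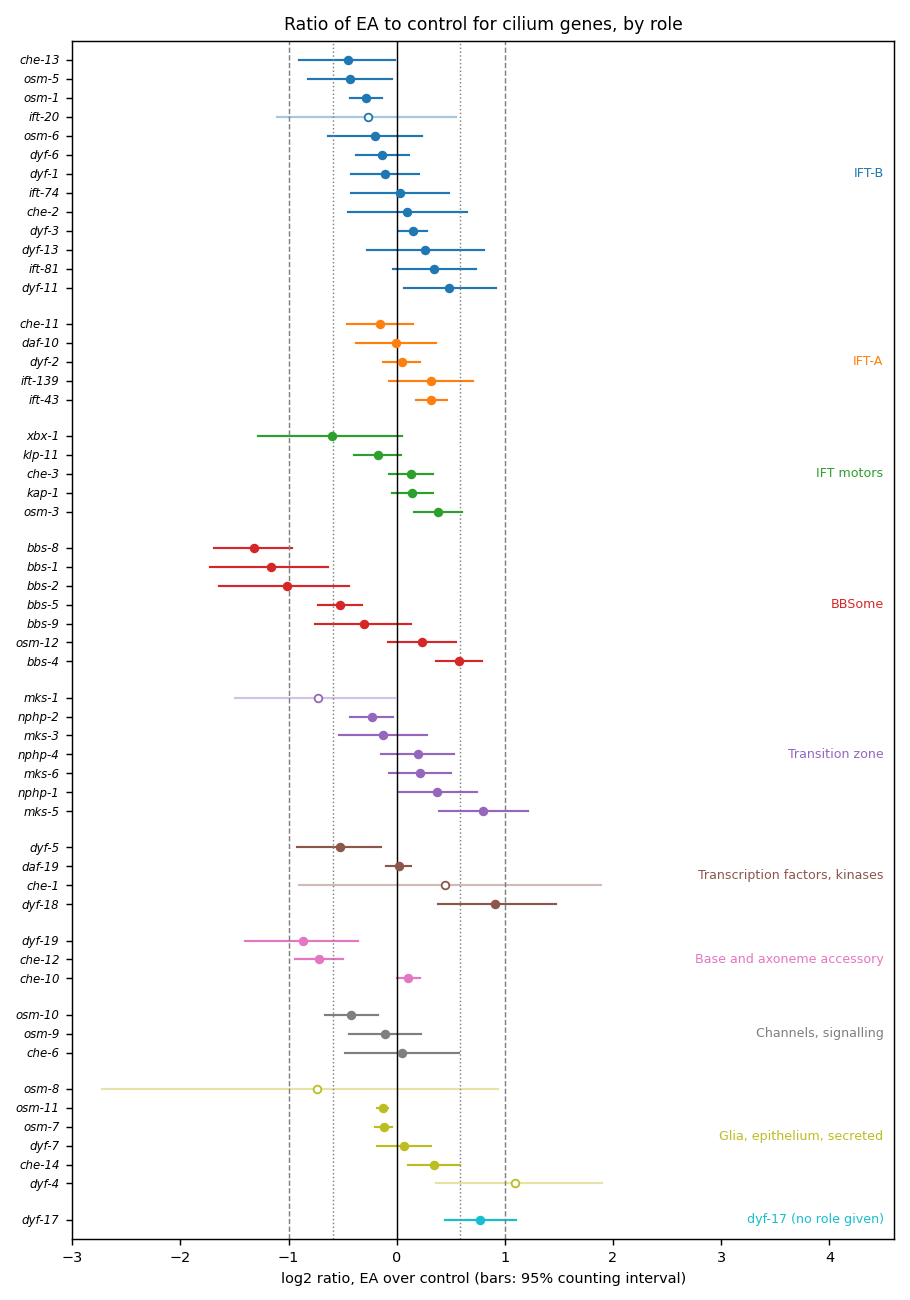
Log2 ratio of EA to control with its 95% counting interval for 54 cilium genes, grouped by role; open symbols are genes under a mean of 1 CPM, dotted lines mark 1.5-fold and dashed lines 2-fold. mks-2 is left out because its control count was 0. The BBSome genes spread from -1.32 for bbs-8 to 0.58 for bbs-4, while no IFT-A, IFT-B or motor gene was called at 1.5-fold.

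IFT-B, the complex that carries cargo toward the tip, showed no gene past 1.5-fold among the 12 of 13 measured at 1 CPM. The median log2 ratio was -0.04, with 6 genes above 0 and 6 below. The lowest was che-13, with 76 counts with EA and 108 in the control, at -0.45 (-0.90 to -0.02). Next was osm-5, a tetratricopeptide repeat subunit and a direct target of DAF-19, with 98 and 137 counts at -0.43 (-0.82 to -0.05). osm-1, the subunit with the longest transcript of this complex, had 677 counts with EA and 855 in the control, at -0.29 (-0.43 to -0.14). At the other end dyf-11, the worm homolog of the microtubule-binding protein MIP-T3, had 111 and 82 counts at 0.49 (0.06 to 0.92). Both signs thus occurred with intervals excluding 0 within this complex. By FPKM the most abundant gene was dyf-3, at 20.2 with EA and 17.6 in the control, and the least was che-2, at 0.621 and 0.554. The log2 ratio of dyf-3 was 0.15 (0.02 to 0.28). ift-20, which was under 1 CPM, had 24 counts with EA and 30 in the control, and 14.7% of its exon bases are shared with spe-5 on the opposite strand. The remaining genes, osm-6, dyf-1, dyf-6, dyf-13, ift-74, ift-81 and che-2, had log2 ratios from -0.20 to 0.35 with intervals that included 0. The summed level of IFT-B was 72.8 CPM with EA and 74.9 CPM in the control, a ratio of 0.972 (0.923 to 1.02).

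IFT-A, the complex needed for the return journey and for entry of membrane proteins, had 0 of 5 genes past 1.5-fold and a median log2 ratio of 0.05. ift-43, its smallest subunit gene by transcript length, had 876 counts with EA and 728 in the control, at 0.32 (0.17 to 0.46). With 32.5 FPKM with EA and 24.9 FPKM in the control it was far above the other IFT-A genes, of which ift-139 was the least abundant at 0.725 and 0.555 FPKM. daf-10 had 3.03 CPM with EA and 3.05 CPM in the control, dyf-2 had 14.6 and 14.1 CPM, and che-11 had 4.24 and 4.72 CPM, with log2 ratios from -0.16 to 0.05. The summed level of IFT-A was 46.9 CPM with EA and 42.0 CPM in the control, a ratio of 1.12 (1.05 to 1.19), and ift-43 was its largest contributor.

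The motor genes were not called either, with 0 of 5 past both limits and a median log2 ratio of 0.13. osm-3, the kinesin that alone builds the distal segments of sensory cilia, had 392 counts with EA and 312 in the control, at 0.38 (0.16 to 0.60). The other kinesin of anterograde transport is kinesin-II, with motor subunits klp-11 and klp-20 and the accessory subunit kap-1. klp-11 had 328 and 383 counts at -0.17 (-0.39 to 0.04), kap-1 had 457 and 428 at 0.14 (-0.05 to 0.34), and klp-20 had 838 and 762 at 0.19. The value of klp-11 is uncertain, because 97.1% of its exon bases are shared with the gene model F20C5.11 on the same strand, which had 997 counts with EA and 1163 in the control. che-3, the heavy chain of the retrograde dynein, had 425 and 402 counts at 0.13 (-0.07 to 0.33). xbx-1, its light intermediate chain, had 33 counts with EA and 52 in the control. Its log2 ratio of -0.60 passed 1.5-fold, but the interval of -1.28 to 0.05 included 0.

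Of 6 transition zone genes at 1 CPM or more, 4 were above 0, and the median log2 ratio was 0.20. At 1.5-fold 1 was called, as higher. mks-5 (chromosome II, 10720231 to 10729329), the scaffold on which the other transition zone proteins assemble, had 136 counts with EA and 81 in the control. It was 1.73-fold higher (1.31 to 2.32). nphp-1 had 144 and 115 counts at 0.37 (0.01 to 0.74), nphp-4 had 158 and 143 at 0.19, and mks-6 had 213 and 190 at 0.21, with intervals of the last pair including 0. In the opposite direction nphp-2, the worm gene related to inversin, had 382 and 465 counts at -0.23 (-0.43 to -0.03), and mks-3, which encodes a membrane protein of the gate, had 98 and 111 at -0.13 (-0.54 to 0.28).

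The other 2 transition zone genes were under 1 CPM. mks-2 (chromosome II, 6218622 to 6219446), which encodes a small membrane protein, had 21 counts with EA and 0 in the control. The 0 allows up to 0.0726 CPM, the level of 3 counts in that library, and mks-2 had 0.526 CPM with EA, at least 7.25-fold higher than that limit when the EA count is taken as it stands. With the counting error of both libraries, the 95% interval of the ratio starts at 5.39. mks-1 had 26 counts with EA and 45 in the control, at -0.73 (-1.50 to -0.01).

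Regulators of cilium formation were mixed. daf-19 (chromosome II, 10157520 to 10169346), the RFX factor, had 1209 counts with EA and 1235 in the control, or 30.3 and 29.9 CPM, at a log2 ratio of 0.02 (-0.10 to 0.14). The gene makes isoforms for ciliated and for other neurons, which counts per gene do not separate. dyf-18 (chromosome IV, 11798654 to 11801178), a kinase of the cyclin-dependent kinase group that controls cilium length, had 84 counts with EA and 46 in the control. It was 1.88-fold higher (1.31 to 2.77), the highest ratio among the 49 genes. dyf-5, a kinase of the MAK group that also limits cilium length, had 95 and 142 counts, at -0.53 (-0.92 to -0.14). In FPKM the log2 ratio of dyf-5 was smaller, at -0.22. che-1, the zinc finger factor that specifies the ASE taste neurons, had only 12 counts with EA and 9 in the control.

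Among accessory proteins of the base and the axoneme, 2 of 3 genes were lower past 1.5-fold. dyf-19 (chromosome V, 19625049 to 19630761), a component of the transition fibres that anchor the cilium base, had 49 counts with EA and 93 in the control, and was 1.82-fold lower (1.28 to 2.65). che-12 (chromosome V, 10299472 to 10307383), a crescerin that acts on axonemal microtubules, had 271 counts with EA and 461 in the control and was 1.64-fold lower (1.41 to 1.92). It was the best counted of the 8 genes past 1.5-fold. che-10, the worm rootletin of the fibre that runs from the cilium base into the dendrite, had 1497 and 1440 counts at 0.11 (0.00 to 0.21).

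Genes with these names that act in signalling, glia or epidermis were mostly close to equal. osm-9, a TRPV channel subunit for osmotic and odour responses, had 146 counts with EA and 163 in the control, and che-6, a subunit of cyclic nucleotide-gated channels, had 63 and 63. osm-10, which is needed for osmotic avoidance, had 241 counts with EA and 334 in the control, at -0.42 (-0.67 to -0.18). osm-11 had 5877 and 6655 counts at -0.13 (-0.18 to -0.08), and osm-7 had 2237 and 2521 at -0.12 (-0.20 to -0.04). che-14, a protein of apical secretion in epithelia, had 318 and 259 counts at 0.35 (0.11 to 0.59), and dyf-7, which anchors dendrite tips during development, had 273 and 270. Under 1 CPM, dyf-4, a secreted protein of the glia around the cilia, had 48 counts with EA and 23 in the control, at 1.10 (0.37 to 1.90), and osm-8 had 5 and 9. dyf-17 (chromosome V, 19127525 to 19131014), for which no role is given here, had 208 counts with EA and 126 in the control and was 1.71-fold higher (1.36 to 2.15).

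The called genes nearest to 1.5-fold had log2 ratios of -0.71 for che-12 on the lower side, and 0.77 for dyf-17 and 0.79 for mks-5 on the higher side. The next genes short of 1.5-fold on the higher side were bbs-4, dyf-11 and osm-3, at 0.58, 0.49 and 0.38. The last 2 stood at 1.40-fold and 1.30-fold. On the lower side dyf-5 and bbs-5 came next, at -0.53 and -0.52. At 2-fold, bbs-2 at -1.02 was just inside on the lower side. The next genes outside were dyf-19 at -0.87 on the lower side and dyf-18 at 0.91 on the higher side.

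Nearby gene lists were set beside the cilium genes, and no test of the difference was made. Among all 14221 genes at 1 CPM or more, 2.03% were higher and 3.52% lower at 2-fold, and 5.86% and 10.6% at 1.5-fold. For genes at a mean of 1 to 10 CPM these shares were 5.2% and 7.73%, and 13.7% and 20.5%. Of 28 measured genes of other cilium components, 2 were at least 2-fold lower (arl-6 and xbx-3) and 0 higher, with a median log2 ratio of -0.05. At 1.5-fold, 4 (14.3%) were lower and 1, ifta-2, higher. The deposited annotation gives a cilium term to 35 of the 55 cilium genes and to 86 other rows. Of the 60 measured among those, a list formed after the values were seen, 6 were lower at 1.5-fold and 5 (8.33%) higher, with a median of 0.02.

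A list centred on sensory transduction in ciliated neurons also held transcription factor genes such as ttx-1 and lim-6, and monoamine genes such as tph-1, cat-2 and dat-1. Of its 28 measured genes, 10 (35.7%) were lower at 1.5-fold and 1 higher, and the median log2 ratio was -0.36. The median level of the list was 3.68 CPM. Of all genes at 1 to 10 CPM 20.5% were lower at 1.5-fold and 13.7% higher. The G protein gene odr-3 had 127 counts with EA and 283 in the control, at -1.10 (-1.42 to -0.80), and gpa-3 had 167 and 330 at -0.93. In the other direction tax-4, a subunit of the cGMP-gated channel of these cilia, had 88 and 39 counts at 1.21 (0.67 to 1.81), while its partner subunit tax-2 had 64 and 65. Glia enclose many of the cilia. Of 12 measured genes of a glia list, 4 (33.3%) were lower at 1.5-fold and 0 higher, with a median of -0.27. The list is not particular to the glia of the amphid sense organ. The share lower was 10.6% among all genes at 1 CPM or more and 20.5% among genes at 1 to 10 CPM. The median level of the glia list was 13.6 CPM. Its 4 lower genes stood lower than that, at 1.14 CPM for hlh-17, 7.36 for delm-2, 8.89 for vap-1 and 11.2 for daf-6. In the glia list vap-1 had 220 counts with EA and 507 in the control, at -1.15 (-1.39 to -0.92). Above 0 were 4 of the 12, with fmo-5 highest at 1424 and 1089 counts, or 0.44 (0.32 to 0.55). The summed level of the glia list was 337 CPM with EA and 345 CPM in the control.

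Pan-neuronal genes stayed within 1.5-fold. Of 22 measured pan-neuronal genes 0 were past 1.5-fold, and the median was -0.06, with 17 below 0 and 5 above. The lowest was egl-3, a proprotein convertase for neuropeptides, at -0.46. The summed level of the 22 genes was 1705 CPM with EA and 1900.3 CPM in the control, a ratio of 0.897 (0.888 to 0.906). Of 16 genes of touch receptor and motor neurons 1 was lower and 0 higher at 1.5-fold, with a median of -0.10. The 10 centriole genes were all above 0, with a median of 0.19 and 0 past 1.5-fold, and the 15 genes of cytoplasmic dynein and dynactin had 0 past it and a median of -0.02.

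Germline and sperm markers were higher with EA, and pharynx markers were lower. The medians for intestine, hypodermis, body wall muscle and embryo markers lay near 0. All 10 germline markers were above 0 with a median of 0.28, and their summed level was 2219 CPM with EA and 1764 CPM in the control. Of 11 measured sperm markers 7 were at least 2-fold higher and 0 lower, with sums of 175 and 114 CPM. Males, which make sperm throughout adult life, have additional ciliated neurons in the tail and head. In the list of genes of male and IL2 ciliated neurons, cwp-1 and cwp-3 had 0 counts in both libraries. cwp-2 had 0 with EA and 12 in the control, cwp-4 had 154 and 187, and cwp-5 had 44 and 51. pkd-2 had 33 counts with EA and 12 in the control, and lov-1 had 105 and 93. Of the 8 list genes at 1 CPM or more, klp-6 was higher at 1.5-fold, with 85 counts with EA and 45 in the control. asic-2 was lower, with 76 and 130, and the median log2 ratio was -0.19. The summed level of that list was 18.2 CPM with EA and 20.1 CPM in the control. The 7 pharynx markers were all below 0, with a median of -0.25 and 0 past 1.5-fold. Their summed level was 397 CPM with EA and 483 CPM in the control. Intestine markers had 1 of 11 lower and a median of -0.02, and hypodermis markers 1 of 4 lower at 1.5-fold and 0.02. Body wall muscle markers had 0 of 9 and -0.01, and embryo markers 0 of 3 and 0.05. The part of tissue composition in the values of the cilium genes was not tested.

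**Figure D4:**
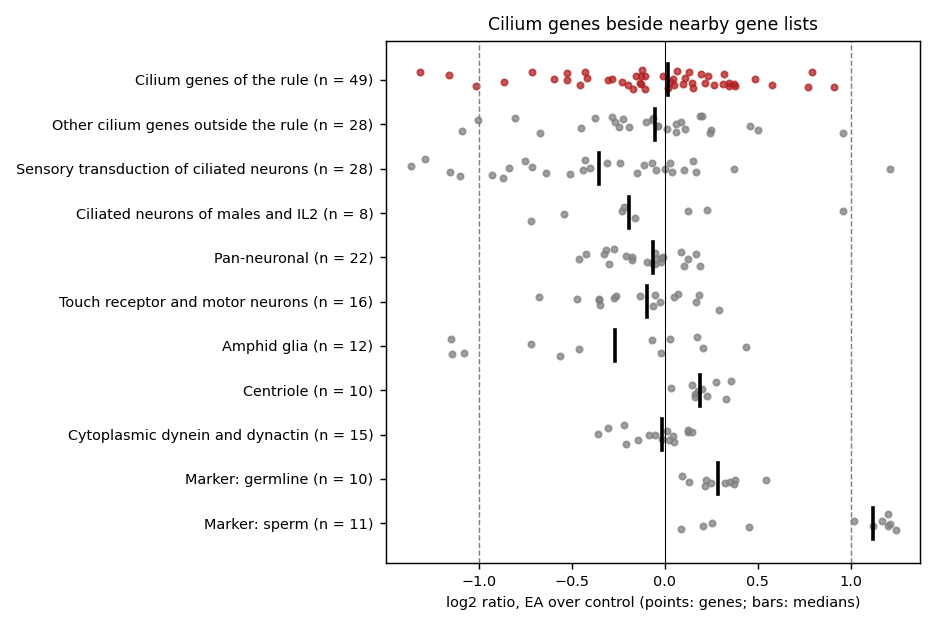
Log2 ratio of EA to control for the 49 cilium genes (top row) and for nearby gene lists, each point a gene at a mean of 1 CPM or more and each bar a median; dashed lines mark 2-fold. The cilium genes centre on 0.02, the sensory transduction list on -0.36 and sperm markers on 1.12. The glia list, labelled amphid glia but not particular to them, centres on -0.27.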

How the data were processed

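The table deposited by the authors gives raw counts and FPKM per gene. FPKM is a value per transcript length and depth, estimated by the authors against WBcel235 per the labels' protocols. The authors' table also holds their own log2 ratio and false discovery rate, and the submitters' processing notes name edgeR. Aligner, counter, strand setting and the treatment of reads that match several genes: not given in the sources used here. Overlapping and near-identical genes are therefore uncertain.

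Groups came from the sample titles. Effective library sizes came from TMM in edgeR 4.0.16 (R 4.3.3), with factors of 1.01 for EA and 0.988 for control. The log2 ratio used 0.5 added to each count, and its 95% interval is an exact binomial one (Clopper-Pearson), conditional on the sum of both counts. No test across genes was possible with 1 library per group. The genes and lists were chosen with earlier results of these data known. The rule for full values took members past 1.5-fold, the extremes, the most and least abundant of each role, daf-19 and genes near the limits. Ratios of further members, and the genes named from the list of male and IL2 neurons, were added after their values were seen.

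Coordinates, counted from 1, are those of RefSeq for WBcel235 (19979 of 21163 rows matched), and transcript length and exon overlap those of Ensembl (19973 rows). No promoter or protein sequence was used here, so the planned search for the DAF-19 binding motif was not made. On simulated data for EA against control, run on 14217 genes with counting error only, the 1.5-fold rule recovered 48 of 50 genes changed 1.75-fold and called 34 of 14017 unchanged genes, and the 2-fold rule recovered 48 of 50 changed 2.5-fold.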

Additional observations from a re-analysis of the deposited data

How the results depend on the processing

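No paired analysis was possible because each group has 1 library. In all, 6 scalings or settings were tried per gene: total counts, DESeq2 1.42.0 size factors, upper quartile factors, FPKM, a pseudocount of 5, and removal of a trend on transcript length. All 8 genes past 1.5-fold kept their direction under these, and 45 of 49 genes kept their sign; daf-10, daf-19, dyf-6 and ift-74 did not, with log2 ratios within 0.13 of 0. The median of the cilium genes ran from -0.04 (length trend removed) to 0.09 (FPKM, where the median of all genes was 0.06).

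For FPKM no interval was used, so calls there rested on the fold alone. With FPKM 1 gene was at least 2-fold higher, dyf-18, at a log2 ratio of 1.00, against 2.48% of all genes. With no minimum level 2 genes passed 2-fold and 5 passed 1.5-fold on the higher side, while 4.78% and 7.88% of all genes did. The additions were dyf-4 and mks-2, and the median of the regulators was 0.23. At a minimum of 5 CPM, which left 20 genes, 0 were at least 2-fold lower, 0 at least 1.5-fold higher and 1, che-12, at least 1.5-fold lower, against 1.52%, 2.32% and 6.63% of all genes. The medians there were 0.0255 for 2 BBSome genes, -0.23 for 1 transition zone gene and -0.30 for 2 accessory genes. The genes of IFT, motors, BBSome and transition zone alone had 1 gene higher and 3 lower at 1.5-fold. These changes follow from which genes each setting keeps, except for FPKM, where the cause was not tested. The motif search was not run.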
